A study of Arabidopsis thaliana with 8 samples.

Results

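The effect of the cob-6 allele of COB was measured across both MED16 genotypes in whole Arabidopsis thaliana seedlings, as the difference that cob-6 made whether or not the plants also carried sfr6-3. All 8 RNA-seq libraries of the series entered the comparison. The 4 libraries that carry cob-6 (2 of the single mutant and 2 of the double mutant cob-6sfr6-3) were set against the 4 that do not (2 of the Columbia wild type, Col-0, and 2 of sfr6-3), in an additive model with the MED16 genotype as covariate. WT thus carries neither allele, cob-6 carries the COB allele alone, sfr6-3 carries the MED16 allele alone, and the double mutant carries both. Seedlings of every genotype were 7 days old and had been kept in 24 h light. The labels name 1 allele of each gene, so an effect of the allele and of anything linked to it cannot be told apart, and nothing in them says that the replicates came from separate cultures. The p-values then reflect the spread among these libraries alone, some of which may be technical.

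COB encodes a glycosylphosphatidylinositol-anchored protein of the outer face of the plasma membrane that is needed for oriented deposition of cellulose in expanding root cells. Loss of its function makes cells swell rather than elongate. MED16, also known as SFR6, encodes a subunit of the tail of Mediator, the complex that links transcription factors to RNA polymerase II, and the series title names it as the gene of a suppressor of COBRA. An additive model asks which transcripts still follow COB when MED16 is mutated, that is, which changes the suppressor leaves in place.

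The 7 libraries other than WT replicate 1 held 24011199 to 37744914 gene reads. WT replicate 1 held 324504432, and its counts were not independent of the rest: no gene with unique reads, 0 of 25179, was below the summed unique reads of the remaining 7 libraries, and 1178 were equal to that sum. Values below use all 8 libraries, and part of them are repeated without WT replicate 1. That repeat is not printed for every gene list. Levels are CPM, read counts scaled to the library total and by TMM, and changes are log2 fold changes with their standard errors, over 4 libraries with and 4 without cob-6. Green tissue markers summed to between 69180 and 95540 CPM and root markers to between 565 and 803 CPM, so leaf and root RNA were both present in every library. In such whole-seedling RNA, fewer cells of a type and less RNA per cell cannot be told apart. A set of 15 seed and embryo genes set double mutant replicate 2 apart, at a mean centred log2 CPM of 3.22, where double mutant replicate 1 stood at -0.89 and the other libraries between -1.53 and 1.38. Of those genes 0 were called by edgeR or DESeq2, with 1 lower at an unadjusted p below 0.05 in each.

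COB itself (AT5G60920, chromosome 5, 24511196 to 24514129) was read at 143 and 239 CPM for WT and at 187 in both sfr6-3 libraries. The single mutant held 68.3 and 66.9 CPM, and the double mutant 82.5 and 70.3 CPM. Every library with cob-6 was thus below every library without it. COB fell by 1.39 ± 0.15 on the log2 scale (edgeR adjusted p = 0.0017), by 1.5 in the wild-type background and by 1.29 in the sfr6-3 background. MED16 (AT4G04920, chromosome 4, 2497644 to 2505535) did not follow cob-6, at 0.17 ± 0.16 (edgeR adjusted p = 0.829, 95% interval -0.18 to 0.52). It was lower by 1.84 in the sfr6-3 libraries in the same model (edgeR adjusted p = 0.00021). The transcripts of both mutated genes therefore matched the genotype labels, with WT replicate 1 the lower of the WT libraries for both, at 24.3 against 34.5 CPM for MED16.

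In all, 64 of 21384 tested genes were called at an adjusted p below 0.05 in edgeR's quasi-likelihood test, which is 0.299% of those tested. Of these, 31 were higher with cob-6 (0.145%) and 33 were lower (0.154%). The rises ran from 0.61 to 2.23 on the log2 scale, with a median of 1.04, and the falls from -0.63 to -3.40, with a median of -1.07. At an unadjusted p below 0.05, 884 genes were higher and 977 lower, 4.13% and 4.57% of those tested. For all 64 called genes the libraries with cob-6 did not overlap those without it, in the same direction, within the wild-type background and within the sfr6-3 background, a pattern that 1751 or 8.19% of tested genes had. The call used the same values, so that count describes the called genes and is no further test of them. The adjusted p nearest the threshold was 0.0495 inside and 0.0514 outside.

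**Figure D1:**
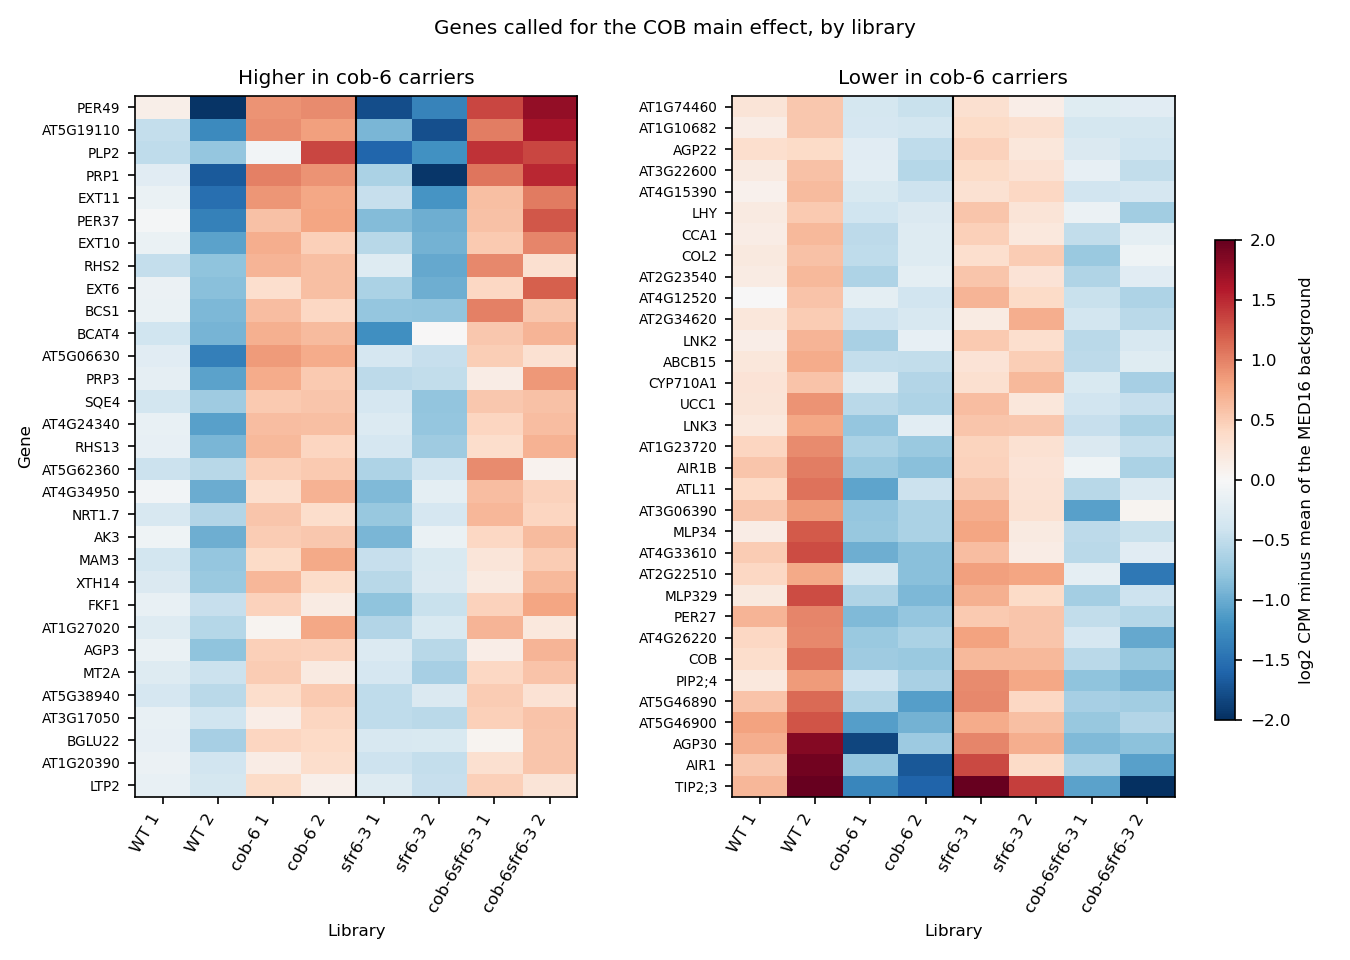
Heat map of the 64 called genes in rows and the 8 libraries in columns, with the 31 genes that rose on the left and the 33 that fell on the right. Color is log2 CPM (0.1 added) minus the mean of the 4 libraries of the same MED16 background, with values past 2 in either direction drawn at the end of the scale. WT replicate 1 is paler than WT replicate 2 in most rows, and the black line parts the backgrounds.

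Wall genes of root hairs rose with cob-6. Root hairs are tubular outgrowths of epidermal cells whose walls are rich in hydroxyproline-rich and proline-rich proteins. Of 43 tested root hair genes, 6 rose, 0 fell, and 17 were higher and 0 lower at an unadjusted p below 0.05. The median change of the list was 0.41, where that of all tested genes was 0.01. It was 0.82 in the wild-type background and 0.35 in the sfr6-3 background. Summed over the list, WT held 474 and 411 CPM against 728 and 665 for cob-6, and sfr6-3 held 381 and 328 CPM against 430 and 509 for the double mutant. The groups did not overlap within either background, and 1 double mutant library lay within the WT range and the other above it.

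RHS13 (AT4G02270, chromosome 4, 992175 to 993038), a root hair specific gene, was the most highly read of the 6. It stood at 73.7 and 43.8 CPM for WT against 130 and 111 for cob-6, and at 39 and 30.1 CPM for sfr6-3 against 63.1 and 79.5 for the double mutant. Both double mutant libraries were above both sfr6-3 libraries, and the rise was 1.04 ± 0.16 (edgeR adjusted p = 0.0198), with 1.03 in the wild-type background and 1.05 in the sfr6-3 background. PRP3, which encodes a proline-rich wall protein of root hair cells, went from 29.1 and 15.7 CPM to 55.4 and 47.6 CPM in the wild-type background. In the other background it went from 15.7 and 16 CPM to 25.1 and 41.5 CPM. PRP3 was higher in every library with cob-6 than in either library of its own control, and it rose by 1.13 ± 0.19 (edgeR adjusted p = 0.0305). Its relative PRP1 rose more, by 2.07 ± 0.33 (edgeR adjusted p = 0.0274). It stood at 8.98 and 3.2 CPM for WT against 21.1 and 19.7 for cob-6, and at 2.38 and 0.898 CPM for sfr6-3 against 7.93 and 10.8 for the double mutant. In the double mutant 1 library lay within the WT range and the other above it.

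XTH14 encodes a xyloglucan endotransglucosylase/hydrolase, an enzyme that cuts and rejoins the xyloglucan chains between cellulose microfibrils. It stood at 24.4 and 17.9 CPM for WT against 47.6 and 38.5 for cob-6, and at 11.4 and 13.7 CPM for sfr6-3 against 19 and 26.3 for the double mutant. The groups did not overlap within a background, and XTH14 rose by 0.94 ± 0.15 (edgeR adjusted p = 0.0274). The xyloglucan list that it belongs to moved both ways. Of 35 tested members 1 rose and 0 fell, with 5 higher and 6 lower at an unadjusted p below 0.05 and a median of 0.03. RHS2 rose by 1.29 ± 0.23 (edgeR adjusted p = 0.0407) and the arabinogalactan protein gene AGP3 by 0.87 ± 0.16 (edgeR adjusted p = 0.045). Several root hair genes missed the threshold with larger estimates, among them XTH26 at 2.39 ± 0.47 (edgeR adjusted p = 0.0574) and RHS15 at 1.68 ± 0.37 (edgeR adjusted p = 0.0844). The leucine-rich repeat extensin gene LRX1, which acts in root hair wall formation, stood at 0.85 in each background (edgeR adjusted p of the main effect 0.132).

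Extensins, the rod-like hydroxyproline-rich proteins that crosslink in the wall, rose beside them. EXT10 (AT5G06640) stood at 23.8 and 12.3 CPM for WT against 43.1 and 36.4 for cob-6, and at 11.7 and 8.87 CPM for sfr6-3 against 24.7 and 33.9 for the double mutant. It rose by 1.31 ± 0.20 (edgeR adjusted p = 0.0198) with no overlap within a background. EXT6 rose by 1.28 ± 0.23 (edgeR adjusted p = 0.0422), EXT11 by 1.55 ± 0.27 (edgeR adjusted p = 0.033), and AT5G06630, the chromosomal neighbor of EXT10 and an extensin-like gene, by 1.15 ± 0.22 (edgeR adjusted p = 0.0495). These genes have close copies, and the share of their reads that were unique was 88.7% for AT5G06630, 89.9% for EXT6, 97.8% for EXT11 and 99.4% for EXT10. EXT11, AT3G17050, AT1G20390 and AT1G10682 had gene reads but 0 reads in exons, so exon reads could not test them. Not all proline-rich genes went up. AT1G23720, annotated as proline-rich extensin-like, went from 57.7 and 82.3 CPM to 27.7 and 25.5 CPM in the wild-type background. In the sfr6-3 background it went from 89.7 and 81.6 CPM to 54.1 and 47.4 CPM, and it fell by 1.07 ± 0.15 (edgeR adjusted p = 0.0165). Of 14 tested genes with that annotation, EXT10, EXT6 and AT5G06630 among them, 3 rose and 1 fell, and their median was 0.61. Their summed level went the other way, from 967 and 1309 CPM for WT to 784 and 838 for cob-6, and from 884 and 845 CPM for sfr6-3 to 763 and 671 for the double mutant. Over 38 extensin, arabinogalactan and proline-rich genes 5 rose and 2 fell, with a median of 0.05.

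Class III peroxidases, secreted enzymes that can crosslink or loosen the wall, moved both ways. PER49 (AT4G36430, chromosome 4, 17204478 to 17205966) had the largest rise of all called genes, 2.23 ± 0.40 (edgeR adjusted p = 0.0407). It stood at 19.5 and 4.5 CPM for WT against 33.3 and 34.7 for cob-6, and at 3.51 and 4.79 CPM for sfr6-3 against 30.9 and 41.5 for the double mutant. WT replicate 1 stood apart from the other 3 libraries without cob-6, and without it the rise was 3.04 ± 0.18 (edgeR adjusted p = 3.88e-06). PER37 rose by 1.54 ± 0.25 (edgeR adjusted p = 0.0278), from 16.5 and 6.61 to 25.5 and 29.5 CPM in the wild-type background, and from 7.57 and 7.03 to 20.9 and 33.1 CPM in the sfr6-3 background. Its reads were unique for 84.6%. PER27 (AT3G01190, chromosome 3, 67058 to 68536) fell by 1.36 ± 0.13 (edgeR adjusted p = 0.0017), one of the smallest p-values of the comparison. It stood at 80.9 and 99.3 CPM for WT against 27.4 and 29.6 for cob-6, and at 133 and 136 CPM for sfr6-3 against 66.1 and 62.2 for the double mutant, so each pair of replicates was close and no group overlapped another. Of 65 tested peroxidases 2 rose and 1 fell, with 16 higher and 14 lower at an unadjusted p below 0.05 and a median of 0.04.

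Among glucosinolate genes, MAM3, BCAT4 and BGLU22 rose with cob-6. MAM3 and BCAT4 act in the synthesis of aliphatic glucosinolates, sulfur-rich defence compounds made from methionine. MAM3 (AT5G23020), which elongates the methionine side chain, stood at 50.2 and 37.8 CPM for WT against 84.7 and 110 for cob-6, and at 28 and 31.5 CPM for sfr6-3 against 46 and 55.4 for the double mutant. The cob-6 libraries were the highest, and the double mutant libraries lay above sfr6-3 and within or just above the WT range. MAM3 rose by 0.96 ± 0.14 (edgeR adjusted p = 0.0174). BCAT4, which starts the same elongation by removing the amino group of methionine, stood at 83.3 and 57.8 CPM for WT against 180 and 170 for cob-6, and at 21.9 and 51.4 CPM for sfr6-3 against 74 and 81.8 for the double mutant. It rose by 1.2 ± 0.21 (edgeR adjusted p = 0.033), and 72.8% of its reads were unique. The beta-glucosidase gene BGLU22 rose by 0.72 ± 0.14 (edgeR adjusted p = 0.0495). Of 37 tested genes of glucosinolate synthesis and breakdown 3 rose and 0 fell, and 17 were higher and 1 lower at an unadjusted p below 0.05, with a median of 0.42 that was 0.27 without WT replicate 2. The summed level of the list overlapped within both backgrounds, at 6187 and 7374 CPM for WT against 6978 and 6549 for cob-6, and at 5236 and 6279 CPM for sfr6-3 against 5518 and 5363 for the double mutant. CYP79F2, which converts chain-elongated methionine, gave 0.93 ± 0.19 (edgeR adjusted p = 0.0705).

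Jasmonate synthesis and its MYC branch had a like median, 0.39, but 0 of 33 tested genes were called by edgeR. At an unadjusted p below 0.05, 15 were higher and 1 lower. DESeq2 called 3 higher, beside 1.58% of all tested genes in either direction. VSP2, a vegetative storage protein gene induced by jasmonate, gave 1.22 ± 0.28 (edgeR adjusted p = 0.103), with 1.22 in each background. The JAZ repressor gene JAZ1 gave 0.96 ± 0.24 (edgeR adjusted p = 0.132), and the allene oxide cyclase gene AOC2 gave 0.87 ± 0.23 (edgeR adjusted p = 0.168). In salicylic acid defence 0 of 17 genes were called by edgeR or DESeq2, with 0 at an unadjusted p below 0.05 in edgeR and a median of 0.03.

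Among other rises, NRT1.7 (AT1G69870), a phloem nitrate transporter gene, stood at 46.3 and 38.5 CPM for WT against 85.4 and 73.9 for cob-6, and at 22.8 and 30.5 CPM for sfr6-3 against 61.6 and 52 for the double mutant. Each mutant pair was above its own control, and the rise was 0.997 ± 0.13 (edgeR adjusted p = 0.00719). PLP2, which encodes a patatin-like lipid acyl hydrolase, rose by 2.07 ± 0.37 (edgeR adjusted p = 0.0407), from 4.96 and 4.14 to 6.84 and 18.2 CPM in the wild-type background, and from 0.351 and 0.486 to 3.58 and 3.31 CPM in the sfr6-3 background. The double mutant libraries were below those of WT for this gene, by an estimate of -0.41 that was not called (edgeR adjusted p = 0.674). Its sfr6-3 levels were very low, so the step there rests on few reads. AT5G19110, annotated as an aspartyl protease, rose by 2.15 ± 0.29 (edgeR adjusted p = 0.0104), and BCS1, annotated for cytochrome bc1 synthesis, by 1.27 ± 0.21 (edgeR adjusted p = 0.0278). The metallothionein gene MT2A, the most highly read gene that rose, went from 383 and 338 to 646 and 519 CPM in the wild-type background, and from 306 and 244 to 512 and 574 CPM in the sfr6-3 background. Its rise was 0.84 ± 0.13 (edgeR adjusted p = 0.0198). The lipid transfer protein gene LTP2 had the smallest rise, 0.61 ± 0.12 (edgeR adjusted p = 0.0486).

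The aquaporin genes TIP2;3 and PIP2;4, both of the root list, fell. TIP2;3 (AT5G47450, chromosome 5, 19248249 to 19249504), which encodes a water and ammonia channel of the vacuolar membrane, had the largest change of all called genes. It stood at 13.9 and 41.5 CPM for WT against 3.46 and 2.79 for cob-6, and at 18.2 and 9.54 CPM for sfr6-3 against 1.67 and 0.511 for the double mutant. Every library with cob-6 was below every library without it, and TIP2;3 fell by 3.40 ± 0.39 (edgeR adjusted p = 0.0031), by 3.13 in the wild-type and 3.74 in the sfr6-3 background. PIP2;4 (AT5G60660, chromosome 5, 24375457 to 24376989), a plasma membrane water channel gene of roots, stood at 17.6 and 27.3 CPM for WT against 11.3 and 9.64 for cob-6, and at 35.4 and 31.4 CPM for sfr6-3 against 10.5 and 9.63 for the double mutant. The 4 libraries with cob-6 lay within a narrow range below the rest, and PIP2;4 fell by 1.41 ± 0.18 (edgeR adjusted p = 0.0067). PIP2;4 lies 134 kb from COB, and AT5G62360, a called rise, lies 527 kb from it, where an effect of cob-6 and of sequence linked to it cannot be told apart. Chromosome 5 held 14 of the 64 called genes, 21.9%, and 23.1% of the tested genes.

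Of 30 tested aquaporin genes 2 fell and 0 rose, and 11 were lower and 0 higher at an unadjusted p below 0.05, with a median of -0.16. The 27 tested root genes had the same 2 falls, with 11 lower and 0 higher at an unadjusted p below 0.05 and a median of -0.13. Casparian strip genes were among those that missed the threshold. CASP5, whose product scaffolds the Casparian strip in the endodermis, gave -4.57 ± 0.92 (edgeR adjusted p = 0.0617) and CASP1 -0.66 ± 0.15 (edgeR adjusted p = 0.0974). The root genes summed to 651 and 741 CPM for WT against 565 and 601 for cob-6, and at 803 and 778 CPM for sfr6-3 against 675 and 692 for the double mutant. These sums were lower with cob-6 within each background, where the root hair sums were higher, and the part that the share of root RNA had in either was not tested. The call count stayed at 2 without any 1 of the 7 libraries other than WT replicate 1, both lower, and was 4 without that library. The median of the root list was not stable, at 0.01 without double mutant replicate 1 and -0.31 without WT replicate 2.

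AIR1 and AIR1B, which encode small secreted proteins known from auxin-treated root cultures, also fell, and the list they belong to moved both ways. Of 10 tested hybrid proline-rich and lipid transfer genes 2 fell and LTP2 rose, with 2 lower and 3 higher at an unadjusted p below 0.05 and a median of 0.29. AIR1 (AT4G12550, chromosome 4, 7439115 to 7439805) stood at 17.7 and 46.2 CPM for WT against 7.07 and 3.65 for cob-6, and at 25.2 and 13.1 CPM for sfr6-3 against 6.53 and 4.71 for the double mutant. It fell by 2.17 ± 0.33 (edgeR adjusted p = 0.0198), with all 4 libraries that carry cob-6 below the rest. Its neighbor AIR1B fell by 1.15 ± 0.19 (edgeR adjusted p = 0.0278). AT5G46900 and AT5G46890, adjacent genes on chromosome 5 of the same protein family, fell by 1.70 ± 0.18 (edgeR adjusted p = 0.0017) and 1.56 ± 0.18 (edgeR adjusted p = 0.0031). AT5G46900 stood at 16.4 and 22.6 CPM for WT against 4.3 and 4.8 for cob-6, and at 32.7 and 29.5 CPM for sfr6-3 against 11.5 and 12.9 for the double mutant, with no overlap between the genotypes. Reads of this pair were unique for 82.6% and 81.6%. AT4G12520, of the same family, fell by 0.83 ± 0.15 (edgeR adjusted p = 0.0422), but only 28.7% of its reads were unique and in unique reads its adjusted p was 0.056.

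Among wall glycoproteins, the root arabinogalactan protein gene AGP30 stood at 14.5 and 31.2 CPM for WT against 2.38 and 5.21 for cob-6, and at 14.9 and 12.6 CPM for sfr6-3 against 4.04 and 4.22 for the double mutant. It fell by 2.16 ± 0.29 (edgeR adjusted p = 0.0104), and no library with cob-6 reached those without it. AGP22 fell by 0.71 ± 0.12 (edgeR adjusted p = 0.0278). The major latex protein gene MLP329 fell by 1.35 ± 0.21 (edgeR adjusted p = 0.0207), from 56.8 and 123 to 32.9 and 26.8 CPM in the wild-type background, and from 51.5 and 40.6 to 19.5 and 23.4 CPM in the sfr6-3 background. Its relative MLP34 fell by 1.25 ± 0.21 (edgeR adjusted p = 0.0299), and of 8 tested members of the family 2 fell and 0 rose. AT4G26220, annotated as a methyltransferase, fell by 1.37 ± 0.20 (edgeR adjusted p = 0.0174), the transporter gene ABCB15 by 0.88 ± 0.13 (edgeR adjusted p = 0.0198), and the phytocyanin gene UCC1 by 1.03 ± 0.17 (edgeR adjusted p = 0.0278).

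Genes of the circadian clock were a further group of falls. The morning-phased transcription factor genes LHY and CCA1, which repress evening genes, fell by 0.75 ± 0.14 (edgeR adjusted p = 0.0433) and 0.75 ± 0.13 (edgeR adjusted p = 0.0407). LHY stood at 167 and 212 CPM for WT against 112 and 121 for cob-6, and at 199 and 163 CPM for sfr6-3 against 125 and 84.3 for the double mutant. All 4 libraries with cob-6 were below the other 4. LNK2 and LNK3, of a small family of clock coactivators, fell by 0.84 ± 0.14 (edgeR adjusted p = 0.032) and 1.04 ± 0.16 (edgeR adjusted p = 0.0199), and COL2 fell by 0.80 ± 0.15 (edgeR adjusted p = 0.0486). FKF1, a blue-light receptor of photoperiodic flowering, rose by 0.93 ± 0.17 (edgeR adjusted p = 0.0407), from 18 and 14.5 to 27.5 and 22.4 CPM in the wild-type background, and from 11.6 and 14.8 to 27.8 and 35.1 CPM in the sfr6-3 background. It did not overlap between libraries with and without cob-6. Of 35 tested clock genes 5 fell and 1 rose, and 16 were lower and 4 higher at an unadjusted p below 0.05, with a median of -0.24. This list was drawn up after the calls had been seen, and the labels give no time of harvest, so whether genotypes were collected at different hours was not tested.

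**Figure D2:**
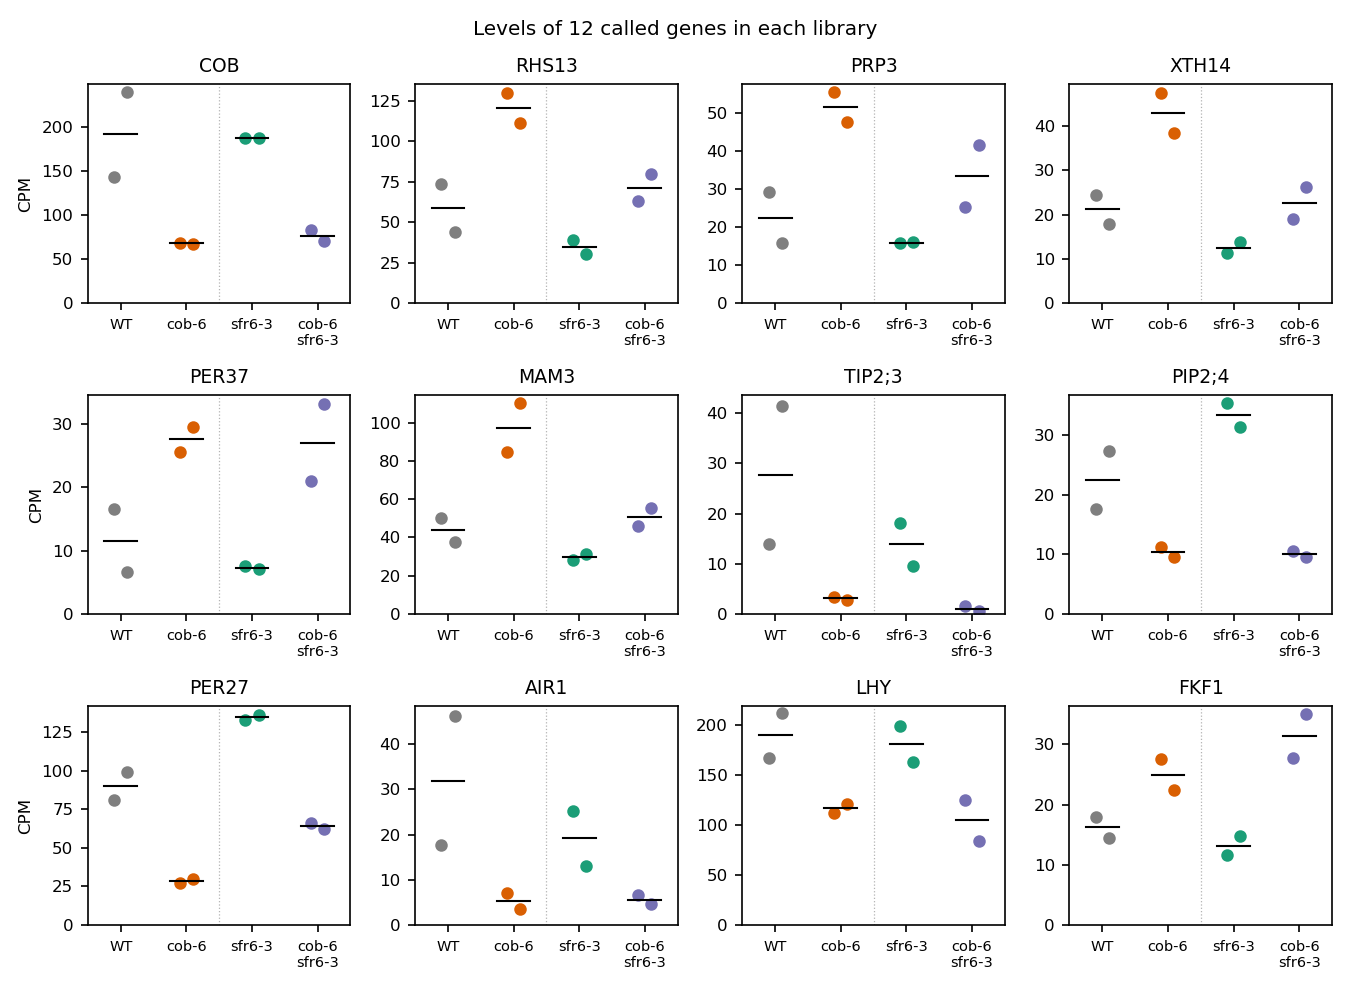
Levels of 12 called genes in CPM (vertical axis, from 0), with 1 point per library and a bar at the mean of the 2 libraries of each genotype. In each panel the dotted line separates the wild-type background from the sfr6-3 background, and the step between the genotypes goes the same way on both sides of it.

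Cellulose synthesis genes were not called with all 8 libraries. Of the 6 genes of primary wall cellulose synthases 0 were called by edgeR or DESeq2 and 0 had an unadjusted p below 0.05. CESA1 gave -0.15 ± 0.13 (95% interval -0.42 to 0.12), CESA3 -0.10 ± 0.13 (-0.37 to 0.17) and CESA6 -0.05 ± 0.11 (-0.29 to 0.20), where these catalytic subunits form the complex that makes primary wall cellulose. Among 14 genes of the partners of the complex, 0 were called by either tool and 0 had an unadjusted p below 0.05. The endoglucanase gene KOR1 gave -0.27 ± 0.14 (-0.57 to 0.03) and the microtubule linker gene CSI1 -0.14 ± 0.11 (-0.38 to 0.09). Changes larger than these bounds were therefore outside the intervals of those genes. In each list 1 gene was lower and 0 higher with no overlap in both backgrounds, beside 8.19% of all tested genes in either direction. The medians of the synthases and partners were -0.08 and -0.04, and -0.13 and -0.09 without WT replicate 1. Within the COBRA family COB was the only call among 8 tested genes.

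Other groups of interest for a wall mutant gave 0 edgeR calls with all 8 libraries. DESeq2 made more calls, 337 of 21384 tested genes or 1.58%, where edgeR called 0.299%. Of 38 secondary wall and lignin genes 0 were called by edgeR and 2, both lower, by DESeq2, with 2 higher and 9 lower at an unadjusted p below 0.05 in edgeR. Of 23 wall integrity receptor genes 0 were called by either tool, with 1 higher and 1 lower at the unadjusted threshold, and FER and THE1 gave -0.10 ± 0.14 and -0.09 ± 0.12. Of 25 pectin genes 0 were called by edgeR and 1 by DESeq2, with 4 higher and 2 lower at the unadjusted threshold. Of 24 expansin genes 0 were called by edgeR and 2 by DESeq2, with 5 higher and 2 lower. Of 30 green tissue genes 0 were called by edgeR and 3, all lower, by DESeq2, with 1 higher and 3 lower at the unadjusted threshold. Of 35 iron deficiency genes 0 were called by edgeR and 2 by DESeq2, with 6 higher and 4 lower. The median of that list was 0.29, and 0.13 to 0.38 with each library left out. With unique reads and the other 7 libraries taken off WT replicate 1, it was 0.42. In that setting edgeR called 5 iron deficiency genes higher and 0 lower, with 18 higher and 4 lower at the unadjusted threshold. Of 22 cold response genes, a group that MED16 is known to act on, 0 were called by either tool, with 2 higher and 2 lower, and of 42 auxin genes 0 were called by either tool, with 0 higher and 5 lower.

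**Figure D3:**
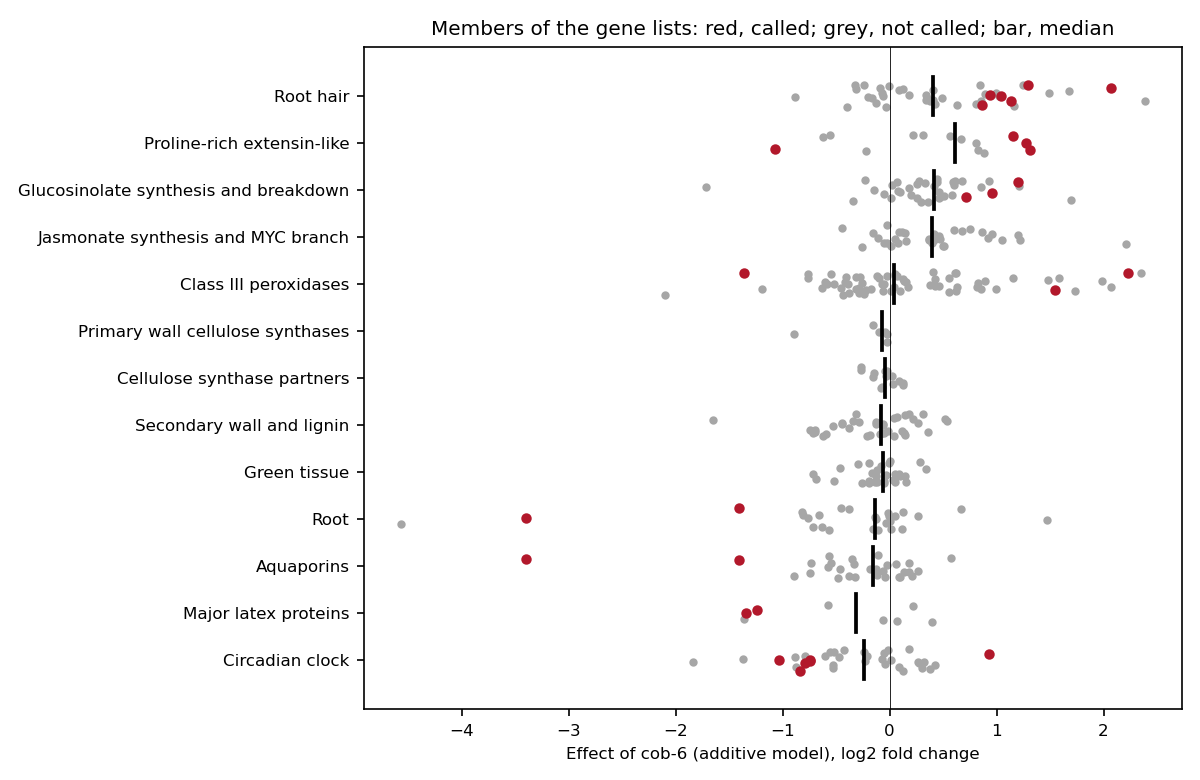
Change with cob-6 (horizontal axis, log2 fold change of the additive model) for the tested members of 13 gene lists, with 1 point per gene and random vertical spread. Red points are called, grey points are not, and the black bar is the median of the list. Medians of the root hair and glucosinolate lists sit at 0.41 and 0.42, and that of the cellulose synthases at -0.08.

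The question of what the MED16 allele left in place was put to each called gene through the interaction, the change with cob-6 in sfr6-3 minus that in the wild-type background. It was called for 0 of the 64 genes by edgeR, with a smallest adjusted p of 0.477, and 8 had an unadjusted p below 0.05, beside 9.08% of all tested genes. The median standard error of the interaction was 0.33, and differences well above that size went uncalled with 2 libraries per genotype. The interaction was 1.68 ± 0.65 for PER49 (edgeR adjusted p = 0.503) and 0.90 ± 0.29 for AIR1B (edgeR adjusted p = 0.477). The lack of calls therefore does not show that the changes were equal. Among genes that rose the median change was 1.02 in the wild-type background and 1.08 in the sfr6-3 background. Among those that fell it was -1.17 and -0.93. The change was larger in size in the sfr6-3 background for 33 genes and smaller for 31, and the ratio of both changes ran from 0.41 to 2.16 with a median of 1.01. Without WT replicate 1 it was larger there for 16 and smaller for 48, at a median ratio of 0.79, and without WT replicate 2 larger for 51 and smaller for 13, at 1.37. No order of the backgrounds is therefore read from these counts, which were repeated with each library left out after the data had been seen. AIR1B was near the low end, with -1.60 in the wild-type and -0.70 in the sfr6-3 background, and PER49 near the high end, with 1.45 and 3.12. A gene called over both backgrounds is likely to have moved in both, so these values describe the called genes.

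**Figure D4:**
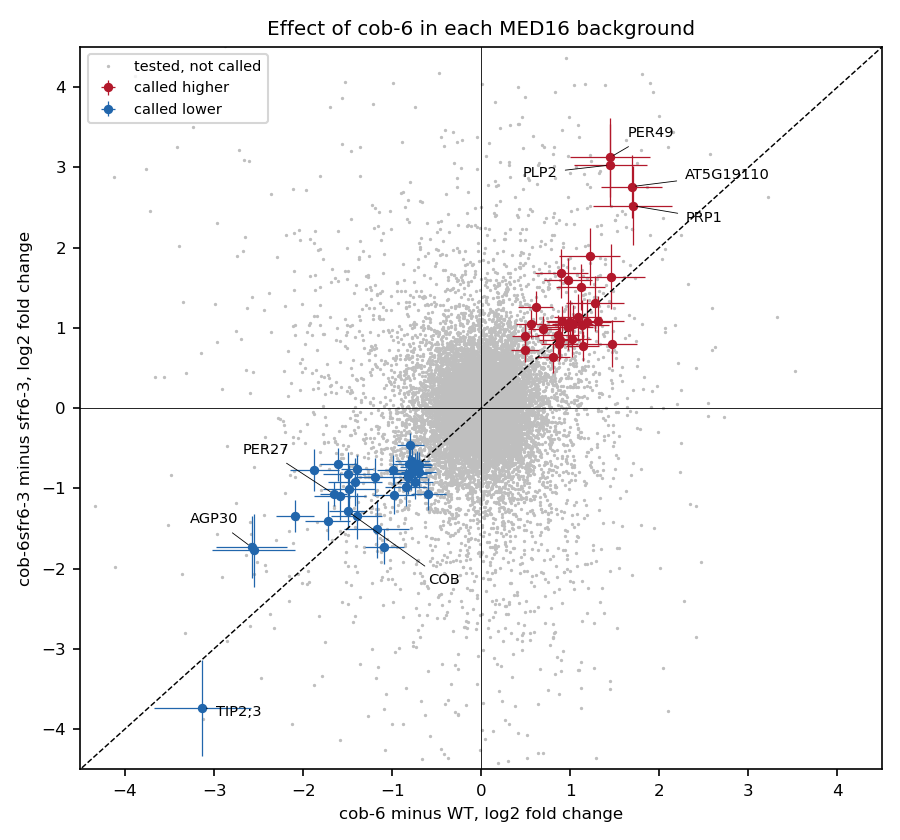
Change with cob-6 in the wild-type background (horizontal axis) against the change in the sfr6-3 background (vertical axis), both as log2 fold changes, for all tested genes in grey and for called genes in red (higher) and blue (lower) with standard errors. The dashed line marks equal changes, called genes lie on both sides of it, and 139 tested genes outside the axis range of 4.5 are not drawn.

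A reading that does not rest on that choice takes genes from 1 background and looks at the other, since the backgrounds share no library. Both changes come from 1 fit with a shared estimate of spread per gene. A gene with a small spread can thus have a low p in both, so the counts by p are not separate readings. Of the 19 genes called in cob-6 against WT (0.0889% of those tested), all of them lower, 14 were also lower in the double mutant against sfr6-3, 10 of them at an unadjusted p below 0.05, where 48.7% of all tested genes were lower there. The genes called in the double mutant against sfr6-3 (0.0748%) were 10 higher and 6 lower, of which 4 and 5 went the same way in cob-6 against WT. At an unadjusted p below 0.05, 67.4% of 408 genes higher in cob-6 and 60.7% of 717 lower in it kept their direction in the sfr6-3 background, beside 51.3% and 48.7% of all tested genes. In the reverse reading the shares were 51% of 1625 higher and 55.3% of 1450 lower, beside 51% and 49% of all tested genes. The backgrounds are not independent where WT replicate 1 holds reads of the other libraries. Without it, 33 of 35 genes called higher in cob-6 and 76 of 87 called lower went the same way in the sfr6-3 background, at median changes of 0.85 and -0.58 there. In reverse, 38 of 52 higher and 28 of 32 lower did so, at 0.50 and -0.93. Other omissions gave lower shares. Without WT replicate 2, 4 of 8 higher and 7 of 13 lower in cob-6 kept their direction, and 34 of 53 and 17 of 26 in reverse. Without double mutant replicate 1 the reverse reading gave 77 of 184 higher and 94 of 190 lower, at median changes of -0.04 and 0.00 in cob-6 against WT, beside 1 of 1 and 11 of 16 for genes called in cob-6. With all 8 libraries, 54 of the 64 genes were called in neither background alone, 8 were called in cob-6 against WT, 4 in the double mutant against sfr6-3, and 2 in both.

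The MED16 allele had effects of its own on part of these genes. The same model called 268 genes for MED16, 1.25% of those tested, and 15 of the 64 genes were among them, 13 lower and 2 higher in plants with sfr6-3. The 13 all rose with cob-6 and the 2 fell with it. Of the 31 rises, 29 had a MED16 estimate below 0, beside 48.3% of tested genes. Of the 33 falls, 21 had an estimate above 0, beside 51.7%. Among genes with an unadjusted p below 0.05 for cob-6, the opposite sign was seen in 54.4% of rises and 35.8% of falls. Both effects were estimated from the same 8 libraries, so the values are set side by side. MAM3 rose by 0.96 with cob-6 and fell by 0.76 with sfr6-3 (edgeR adjusted p = 0.0163), and its level in the double mutant was 0.20 above WT on the log2 scale. XTH14 rose by 0.94 and fell by 0.84 (edgeR adjusted p = 0.0138), which put the double mutant 0.09 above WT. PLP2 rose by 2.07 and fell by 2.50 (edgeR adjusted p = 0.0049), which put it at -0.41. PER27 fell by 1.36 with cob-6 and was higher by 0.87 with sfr6-3 (edgeR adjusted p = 0.0049), which left the double mutant at -0.49. The steps from sfr6-3 to the double mutant were 0.77 ± 0.19, 0.86 ± 0.22, 3.03 ± 0.51 and -1.07 ± 0.15 for these 4 genes in that order. Taken alone, that step was called for PER27 (edgeR adjusted p = 0.021). It was not called for MAM3, XTH14 or PLP2 (edgeR adjusted p = 0.136, 0.154 and 0.0548). A call over both backgrounds favors genes with a step in each, so these values describe the genes named. COB, TIP2;3, MT2A and the clock gene LHY had no MED16 call, and their double mutant levels differed from WT by -1.32, -4.72, 0.59 and -0.86. That difference was called for COB and TIP2;3 (edgeR adjusted p = 0.0124 and 0.00527) but not for MT2A or LHY (edgeR adjusted p = 0.142 and 0.0726). In all, 9 of the 64 genes were called in the double mutant against WT. The share of all tested genes called there was not counted, so whether 9 is many or few was not tested.

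A list of 147 loci in the authors' deposited table is described as changed in cob-6 but no longer so in plants with both alleles, and its criteria are not stated. Of these 146 were tested and 24 were called here, 16 higher and 8 lower, which is 37.5% of the called genes and 16.4% of the tested list. The list and the calls come from the same libraries, so their overlap is a description. Over the 72 tested list genes higher in cob-6 than WT, the median change was 0.94 there and 0.43 in the sfr6-3 background. Over the 74 lower ones it was -0.82 and -0.11, and 106 of the 146 had the same sign in both backgrounds. The 24 were called over both backgrounds, a choice that favors genes with a step in each. For the 16 that rose the median change was 1.13 from WT to cob-6, 1.06 from sfr6-3 to the double mutant, and 0.32 from WT to the double mutant. For the 8 that fell these medians were -1.18, -0.79 and -0.51. The 15 called rises outside the list had 0.97, 1.14 and 0.71, and the 25 called falls outside it -1.09, -0.98 and -0.98. RHS13, PRP1, PRP3, XTH14, MAM3, BCAT4 and PER27 were among the 24.

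**Figure D5:**
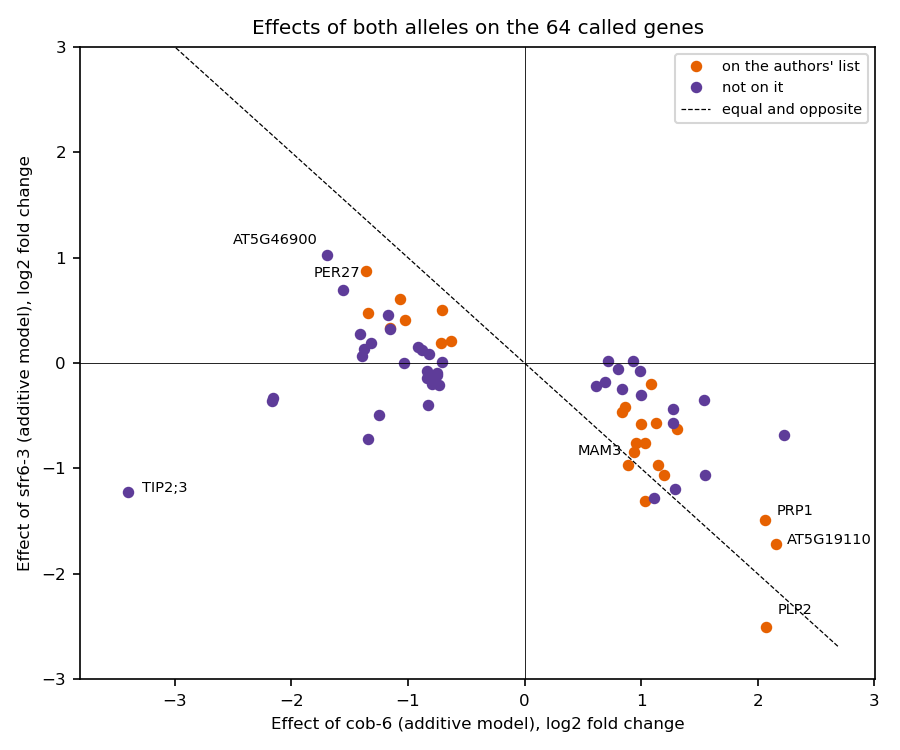
Change with cob-6 (horizontal axis) against change with sfr6-3 (vertical axis) in the additive model, as log2 fold changes, with 1 point for each of the 64 called genes. Orange points are on the authors' list and purple points are not, and on the dashed line both changes cancel in the double mutant. MAM3 lies near the line at 0.96 and -0.76, and TIP2;3 far from it at -3.40 and -1.22.

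Leaving out WT replicate 1 made 267 calls, 118 higher and 149 lower, and held all 64 genes with the same signs. The count was 256 when unique reads were used and those of the remaining 7 libraries were subtracted from WT replicate 1. Among the 64, the median change in the wild-type background was then 1.43 for rises and -1.38 for falls without that library, beside 1.08 and -0.93 in the sfr6-3 background. COB stood at -1.51 ± 0.13, TIP2;3 at -3.73 ± 0.32, PER27 at -1.37 ± 0.15 and RHS13 at 1.21 ± 0.15 without it. Root hair calls went from 6 to 9 with XTH26, XTH13 and RHS15, at 3.18 ± 0.44 (edgeR adjusted p = 0.0038), 1.88 ± 0.34 (edgeR adjusted p = 0.018) and 2.21 ± 0.39 (edgeR adjusted p = 0.016). Glucosinolate calls went from 3 to 5 with CYP79F2 at 1.18 ± 0.18 (edgeR adjusted p = 0.0072) and IPMI1 at 0.79 ± 0.18 (edgeR adjusted p = 0.0454). Aquaporin calls went from 2 to 5, all lower, and clock falls from 5 to 8. In the jasmonate list JAZ1 was called, at 1.15 ± 0.25 (edgeR adjusted p = 0.0404). The peroxidase and xyloglucan lists gained calls in both directions. Expansin, pectin, green tissue, iron deficiency and auxin lists, with no edgeR calls over all 8 libraries, had some without that library. In the xyloglucan list XTH14 and XTH20 then stood at 1.02 and 1.67, and XTH15, XTH22 and XTH6 at -1.518, -1.065 and -0.774. Wild-type plants are represented by 1 library in that fit, which is assumed to vary like the other groups.

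The number of calls rested on single libraries. Leaving out WT replicate 2 gave 26 calls, sfr6-3 replicate 1 gave 7, sfr6-3 replicate 2 gave 20, cob-6 replicates 1 and 2 gave 13 and 18, and double mutant replicates 1 and 2 gave 19 and 19. All 64 genes kept their sign in each of these fits. Most list counts fell with them. Root hair rises were 3 without WT replicate 2, 3 and 1 without double mutant replicates 1 and 2, 0 and 1 without cob-6 replicates 1 and 2, and 0 without either sfr6-3 library. Glucosinolate rises were 1 without WT replicate 2, 1 and 0 without double mutant replicates 1 and 2, 1 and 0 without cob-6 replicates 1 and 2, and 0 and 3 without sfr6-3 replicates 1 and 2. Clock falls were 2 without cob-6 replicate 2, 1 without double mutant replicate 2, and 0 without any other 1 of these 7 libraries. Falls of AIR1 and AIR1B were called together or not at all, in 3 of the 7 fits, and major latex protein falls were 0 to 2. The 2 aquaporin falls stayed at 2 in all 7. The medians kept their sign in every fit with 1 library left out for the root hair list (0.29 to 0.56), the glucosinolate list (0.27 to 0.51), the aquaporin list (-0.39 to -0.12) and the clock list (-0.43 to -0.25). COB, PER27, TIP2;3, PIP2;4, AT5G46900, AT5G46890 and NRT1.7 were called under all 16 other settings tried, 7 genes in all.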

How the data were processed

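RNA-seq counts of 8 whole-seedling libraries were used (100-base paired-end reads, per the labels' protocols). The authors deposited counts per gene as total, unique and exon reads, per the file headers. Strand use, aligner and genome build were not given in the sources used here. Beside counts, the authors' deposited second table holds, as a score, the signed fold of the double mutant over cob-6, with a p-value from an EDGE test, per the file headers; it was looked at for the called genes and is not printed. Gene positions come from the deposited table, with 1 added to starts that count from 0, and 32835 of 33602 loci matched the RefSeq table by identifier, which gave descriptions. The files held 0 columns of samples of other series.

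Total gene reads were tested in edgeR 4.0.16 (R 4.3.3) with TMM scaling, filterByExpr by genotype, and an additive quasi-likelihood fit of MED16 and COB genotype with 5 residual degrees of freedom. Adjusted p-values are Benjamini-Hochberg over all 21384 tested genes, and calls are at 0.05. A fit with 1 mean per genotype gave the changes within a background and the interaction. Depth was 24011199 to 37744914 gene reads in 7 libraries and 324504432 in WT replicate 1. On simulated counts, the fit recovered 75 of 100 genes with a 2-fold change and 96 of 100 with a 4-fold change. Beside these it made 20 false calls among the 21384 genes. In that run the false share of all calls was thus above the 0.05 threshold. The changed genes were drawn from those with a mean CPM above 1, and no MED16 effect was simulated. The simulated libraries were independent, which WT replicate 1 is not.

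COB and MED16 were named always. Named beside them were, from the called genes whose libraries did not overlap and whose average log2 CPM was 1 or more, the top 10 in each direction, and up to 3 called members per list. Further genes were chosen after their values were seen, and the clock, aquaporin, latex protein and extensin-like lists were also drawn up then. The members and lists were chosen with earlier results of these data known. Alternatives were unique reads, exon reads, other size factors, DESeq2 1.42.0, no filter, other designs and each library left out.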

Additional observations from a re-analysis of the deposited data

How the results depend on the processing

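The 64 calls, and the 64 calls with no overlap in either background, became 527 and 354 with no filter on low counts (26097 tested), 337 and 303 in DESeq2, 256 and 244 with the other 7 libraries taken off WT replicate 1, and 7 to 267 and 7 to 265 with each library left out. Unique reads gave 99 calls, exon reads 61, DESeq2 size factors 65 and 1 mean per genotype 76. Interaction calls among the called genes were 0, except 38 with no filter and 3 with 1 mean per genotype; for these settings the cause was not tested. With the replicate number as a block there were 57 calls, 56 without overlap, and 49 of the 64 remained. Deviations of same-numbered libraries correlated at -0.07 to 0.05, so the numbers were not taken to pair the samples. All 64 genes kept their direction under every setting that measured them. Exon reads measured 60 of them, and 58 were still called there. With 2 libraries per genotype, 75 of 100 simulated 2-fold changes were recovered, all in genes with a mean CPM above 1. Changes of that size and below can thus go uncalled.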
